A study of Caenorhabditis elegans with 24 samples.

Results

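The comparison of *daf-2(lf)* with wild-type muscle cells took in 7 of the 24 mRNA-seq libraries of the study, 3 of *daf-2(lf)* and 4 of wild-type muscle cells, which were chosen by the genotype and cell type of their labels. The study held 14 libraries of muscle cells in all, from 4 genotypes, and its other libraries were of cells sorted without selection for muscle. Every strain carried a transgene that labels the body wall muscle cells with GFP, and the promoter that drives it is not given in the sources used here. Young adults were dissociated, and cells that were positive for GFP and negative for propidium iodide, a dye that enters dead cells, were collected by FACS as independent replicates.

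The *daf-2(lf)* strain carried *daf-2(e1370)*, a temperature-sensitive loss-of-function allele of the only insulin/IGF-1 receptor of *C. elegans*, and kept a functional *daf-16*. The wild-type strain was wild-type at both genes and carried the same GFP label. The *daf-2(lf)* animals were reared at 15 °C until the L4 larval stage and then moved to 22.5 °C, whereas the wild-type animals were kept at 22.5 °C throughout. The receptor mutation, the strain and the rearing temperature therefore cannot be told apart in this comparison. The authors' record also names a single-end TruSeq Stranded and a paired-end SMART-Seq preparation without saying which libraries received which, so a part of the kit in any difference was not tested. A further pair of groups is used for contrast, muscle cells of the double mutant *daf-16(lf)*; *daf-2(lf)* (3 libraries, reared as *daf-2(lf)*) and of *daf-16(lf)* alone (4 libraries, reared as wild-type), which lack DAF-16 and share no library with the first pair.

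In insulin/IGF-1 signaling (IIS), ligands bind the DAF-2 receptor, which acts through the phosphoinositide 3-kinase AGE-1 and the kinases PDK-1, AKT-1 and AKT-2. AKT phosphorylates the FOXO transcription factor DAF-16, which is then held in the cytoplasm by 14-3-3 proteins. When DAF-2 activity is low, DAF-16 enters the nucleus and changes the transcription of genes for stress resistance, metabolism and longevity. Body wall muscle is the contractile tissue of locomotion in the worm, built of obliquely striated sarcomeres.

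The muscle cells of *daf-2(lf)* animals differed widely from those of the wild type. Abundance was measured as TPM, the share of a transcript in its library after correction for its length, summed over the transcripts of a gene. Of 14717 genes tested, 4785 (32.5%) differed at an adjusted p under 0.05 (limma on log2(TPM + 1) with Benjamini-Hochberg adjustment, as for every adjusted p of a gene below), of which 2888 (19.6%) were higher and 1897 (12.9%) lower in *daf-2(lf)*. The median log2 difference over all tested genes was 0.05. Of the calls, 60.4% were higher, against 47.8% under median-of-ratios scaling, so the balance of directions depended on the scaling. A difference of at least 2-fold was met by 2440 higher and 1715 lower genes, and one of at least 8-fold by 174 and 210. The values of all 3 *daf-2(lf)* libraries lay outside the range of the 4 wild-type libraries for 7130 genes (48.4%), among them 4617 of the called genes.

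The libraries differed in composition before any single gene is considered. The 10 most abundant genes took 18.2 to 20.8% of all TPM in *daf-2(lf)* libraries and 34.1 to 43.2% in wild-type libraries, ranges that did not overlap. Between 12464 and 16149 genes were above 0 in *daf-2(lf)* libraries and between 14280 and 16948 in wild-type libraries. TPM carries no read depth, so the counting error of a value is unknown and a gene at 0 is only listed at 0. Replicates correlated at r = 0.945 to 0.982 in *daf-2(lf)* and at r = 0.937 to 0.990 in wild-type cells over log2(TPM + 1) of the genes. Among the wild-type libraries, replicate 4 held the lowest value of many abundant contractile genes, and values without it are given where they matter.

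Marker genes of body wall muscle summed to 35694 to 44711 TPM in *daf-2(lf)* and 66164 to 97166 TPM in wild-type libraries, so both groups held muscle transcripts at high levels. The sum was lower in every *daf-2(lf)* library (log2 difference -1.16, two-sided exact permutation test of 3 against 4 libraries, p = 0.0286, the smallest p that 35 regroupings allow, adjusted p = 0.0367 over 9 marker lists). Of the 10 markers 3 rose and 5 fell. Markers of other cells were scarce in both groups beside those of body wall muscle. The sums of most of these lists, though not of sperm and coelomocytes, were lower in every *daf-2(lf)* library. Those of pharyngeal muscle summed to 5.40 to 11.1 TPM in *daf-2(lf)* and 55.1 to 154 TPM in wild-type cells, with 4 of 6 lower. Those of the intestine summed to 124 to 270 TPM in *daf-2(lf)* and 317 to 806 TPM in wild-type cells, with 3 of 10 lower (5 under either other scaling). The metallothionein gene *mtl-2* is among these 10. It held 509 TPM in wild-type replicate 4 and 116.5 to 143 TPM in the other wild-type libraries, and the sums were not compared without it. Those of the hypodermis summed to 94.0 to 223 TPM in *daf-2(lf)* and 274 to 1270 TPM in wild-type cells, with 1 of 6 lower and none without wild-type replicate 4. The marker *dpy-13* held 1155 TPM in that library and 211 to 274 TPM in the other wild-type libraries. Neuronal markers summed to 114 to 165 TPM in *daf-2(lf)* and 215 to 270 TPM in wild-type cells, with 1 of 9 higher and 3 lower. Germline markers summed to 85.2 to 121 TPM in *daf-2(lf)* and 199 to 330 TPM in wild-type cells, with 3 of 8 higher and 1 lower. None of them was higher without wild-type replicate 1, *daf-2(lf)* replicate 1 or *daf-2(lf)* replicate 2. Each of these sums had the same p and adjusted p as that of body wall muscle, and no marker of any list was listed at 0 in all libraries of a group. Sperm markers spanned 22.8 to 150 TPM in *daf-2(lf)* and 32.3 to 169 TPM in wild-type cells and overlapped (exact permutation p = 0.629). Markers of glia spanned 0.0260 to 1.34 TPM in *daf-2(lf)* and 5.04 to 8.47 TPM in wild-type cells (exact permutation p = 0.0286). Those of coelomocytes spanned 0.613 to 1.44 TPM in *daf-2(lf)* and 1.05 to 5.98 TPM in wild-type cells (exact permutation p = 0.0857). In such bulk samples, fewer cells of a type and less RNA per cell cannot be told apart.

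More genes of the insulin pathway rose than fell in *daf-2(lf)* muscle cells. Of 16 genes for the receptor, its kinase cascade and their partners, 9 rose and 1 fell, with a median log2 difference of 1.26, against 19.6% higher and 12.9% lower and a median of 0.05 over all genes. Without *daf-2(lf)* replicate 1 the rises numbered 7. Their summed abundance was 1178 ± 21.6 TPM in *daf-2(lf)* and 432 ± 79 TPM in wild-type muscle cells (SD, n = 3 and n = 4). Of this the 14-3-3 genes *ftt-2* and *par-5* held 1013 ± 60.7 TPM in *daf-2(lf)* and 385 ± 79.1 TPM in wild-type cells, and the other 14 genes summed to 165 ± 44.4 TPM in *daf-2(lf)* and 47.0 ± 7.49 TPM in wild-type cells. *daf-2* had 6.94, 3.11 and 2.38 TPM in *daf-2(lf)* and 0.61, 0.83, 1.23 and 1.08 TPM in wild-type cells (log2 difference 1.32, SE 0.36, adjusted p = 0.00686). All *daf-2(lf)* libraries were above the wild-type ones, with replicate 1 well above the others, and without it the gene no longer passed the test (0.96, adjusted p = 0.0671). The allele leaves the gene in place, so its transcript level does not check the labels.

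Downstream of the receptor, *akt-2* had 21.7, 13.8 and 16.2 TPM in *daf-2(lf)* and 2.7, 1.43, 1.66 and 1.14 TPM in wild-type cells (log2 difference 2.75, SE 0.30, adjusted p = 4.34e-07). Its partner *akt-1* had 60.3, 25.3 and 30.4 TPM in *daf-2(lf)* and 4.25, 5.36, 6.52 and 3.03 TPM in wild-type cells (log2 difference 2.71, SE 0.48, adjusted p = 0.000141). *pdk-1*, the kinase that activates both, had 8.19, 4.03 and 8.01 TPM in *daf-2(lf)* and 0.383, 0.562, 0.759 and 1.62 TPM in wild-type cells (log2 difference 2.07, SE 0.27, adjusted p = 5.37e-06). For all these kinases the lowest *daf-2(lf)* library exceeded the highest wild-type library. *pptr-1*, a regulatory subunit of the PP2A phosphatase that counters AKT-1, had 36, 29.7 and 33.4 TPM in *daf-2(lf)* and 7.85, 8.46, 11.8 and 10.5 TPM in wild-type cells (log2 difference 1.69, SE 0.32, adjusted p = 0.000304). The kinase gene *sgk-1* went the other way, with 0.3, 0.286 and 0.238 TPM in *daf-2(lf)* and 1.03, 1.1, 1.2 and 1.62 TPM in wild-type cells (log2 difference -0.80, SE 0.28, adjusted p = 0.031). It lost this call when any of 6 of the 7 libraries was left out, with log2 differences from -0.83 to -0.73 (the exception was wild-type replicate 1). *age-1*, the catalytic subunit of phosphoinositide 3-kinase, did not pass the test at 2.31, 2.01 and 1.3 TPM in *daf-2(lf)* and 1.57, 1.51, 1.98 and 0.85 TPM in wild-type cells (log2 difference 0.22, SE 0.34, adjusted p = 0.687).

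*daf-16*, the FOXO factor at the end of the cascade, had 50.5, 28.6 and 34.8 TPM in *daf-2(lf)* and 7.49, 7.43, 9.91 and 10.8 TPM in wild-type cells (log2 difference 1.95, SE 0.35, adjusted p = 0.000151), with no overlap between the groups. The 14-3-3 genes, whose products bind phosphorylated DAF-16, rose as well. *ftt-2* had 392, 496 and 427 TPM in *daf-2(lf)* and 131, 146, 160.1 and 219 TPM in wild-type cells (log2 difference 1.43, SE 0.22, adjusted p = 2.75e-05). *par-5* had 557, 574 and 593 TPM in *daf-2(lf)* and 199.7, 190.5, 214 and 282 TPM in wild-type cells (log2 difference 1.39, SE 0.18, adjusted p = 4.08e-06). In mean TPM *daf-2(lf)* was 2.67 times the wild type for *ftt-2* and 2.59 times for *par-5*.

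**Figure D1:**
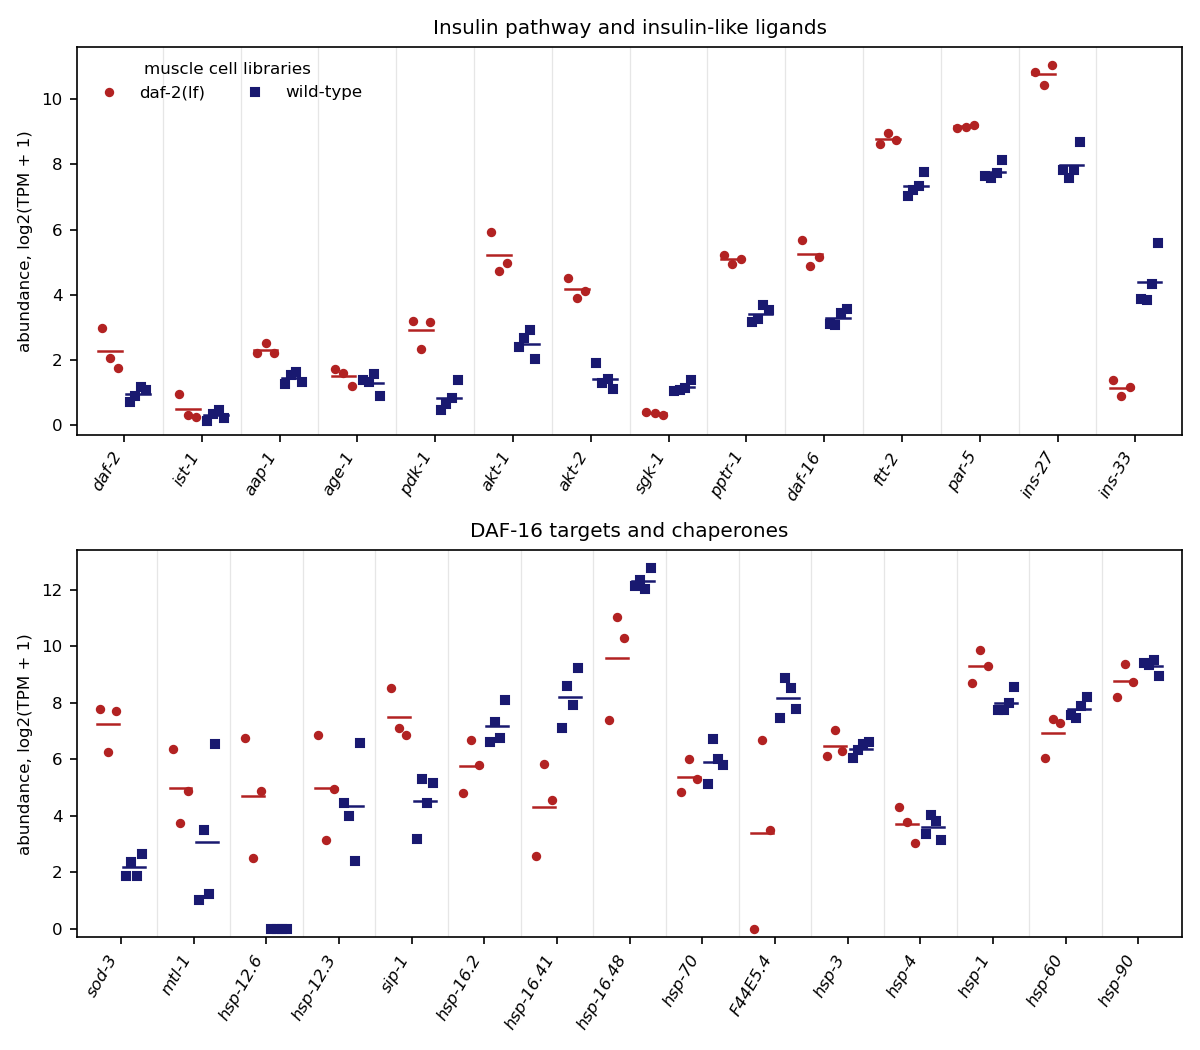
Abundance as log2(TPM + 1) of genes of the insulin pathway and of insulin-like ligands in the upper panel, and of DAF-16 targets and chaperones in the lower panel, with 1 point per library (*daf-2(lf)* left of wild-type for each gene) and a bar at the group mean. The *daf-2(lf)* points of *akt-1*, *akt-2*, *pdk-1*, *daf-16* and *sod-3* lie above all wild-type points, and those of *hsp-16.41* below them.

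Of 17 regulators linked to the pathway, 8 rose and 1 fell (median 0.83), against 7 higher and 5 lower under median-of-ratios scaling. *rsks-1*, the S6 kinase of the TOR pathway, had 34.1, 29.2 and 25.1 TPM in *daf-2(lf)* and 2.38, 3.45, 4.46 and 5.35 TPM in wild-type cells (log2 difference 2.66, SE 0.37, adjusted p = 9.03e-06). *aak-2*, a catalytic subunit of AMP-activated kinase, had 28.3, 16.5 and 19.8 TPM in *daf-2(lf)* and 4.48, 4.46, 6.1 and 6.17 TPM in wild-type cells (log2 difference 1.82, SE 0.23, adjusted p = 2.92e-06). Both kinases were above every wild-type library in each *daf-2(lf)* library. Transcription factors of stress responses rose by log2 differences of 1.59 for *atfs-1* (mitochondrial unfolded protein response), 1.54 for *hif-1* (hypoxia), 1.47 for *nhr-49* (fasting and lipid metabolism) and 1.34 for *skn-1* (oxidative stress), with adjusted p from 8.97e-05 to 0.00106. *xbp-1*, the factor of the endoplasmic reticulum stress response, fell, with 200.5, 135 and 208 TPM in *daf-2(lf)* and 595, 407, 404 and 235 TPM in wild-type cells (log2 difference -1.13, SE 0.26, adjusted p = 0.00178). Its lowest wild-type library, replicate 4, was close to the highest *daf-2(lf)* library. *hsf-1*, the heat shock factor, did not pass the test at 9.41, 11 and 8.27 TPM in *daf-2(lf)* and 19.6, 35.9, 35.1 and 15.9 TPM in wild-type cells (log2 difference -1.31, SE 0.70, adjusted p = 0.169).

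The insulin-like ligands moved in both directions. Of 31 tested, 2 rose and 10 fell, with a median of -0.06 that turned to 0.07 under quantile normalization. The number of falls was 5 or 6 without any of 5 libraries (wild-type replicates 2 and 3 and each *daf-2(lf)* replicate). Their summed abundance, 1867 ± 399 TPM in *daf-2(lf)* and 392 ± 100.5 TPM in wild-type muscle cells, was set by *ins-27*. This ligand had 1836, 1385 and 2138 TPM in *daf-2(lf)* and 225, 189, 228 and 414 TPM in wild-type cells (log2 difference 2.80, SE 0.30, adjusted p = 4.38e-07). Every *daf-2(lf)* library was more than 3 times the highest wild-type library. *ins-33* had 1.58, 0.831 and 1.24 TPM in *daf-2(lf)* and 13.5, 13.2, 19.2 and 46.8 TPM in wild-type cells (log2 difference -3.27, SE 0.66, adjusted p = 0.00056). *ins-30* had 4.47, 2.05 and 2 TPM in *daf-2(lf)* and 12.3, 14.3, 21.1 and 10.7 TPM in wild-type cells (log2 difference -2.04, SE 0.37, adjusted p = 0.000192). *ins-14* was nearly absent in *daf-2(lf)*, with 0, 0.168 and 0.0802 TPM in *daf-2(lf)* and 3.44, 4.49, 6.51 and 2.38 TPM in wild-type cells (log2 difference -2.21, SE 0.35, adjusted p = 4.48e-05). These falls stood beside the lower sums of intestinal, hypodermal and neuronal markers, cells in which many insulin-like genes are expressed, and the part of these cells was not tested.

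Genes long known as targets of DAF-16 in whole animals did not move as a class. Of 26 genes of the class raised by active DAF-16, 6 rose and 6 fell (median 0.08), beside 19.6% higher and 12.9% lower over all genes. The share of rises was thus near that of all genes. Of 11 of the lowered class none rose and 4 fell (median -0.41). *sod-3*, a mitochondrial manganese superoxide dismutase and the standard reporter of DAF-16 activity, had 221, 75.6 and 207 TPM in *daf-2(lf)* and 2.64, 4.16, 2.65 and 5.22 TPM in wild-type cells (log2 difference 5.07, SE 0.63, adjusted p = 2.56e-06). Every *daf-2(lf)* library was more than 10 times the highest wild-type library. *sod-5*, a cytosolic superoxide dismutase, had 16.3, 7.04 and 11.7 TPM in *daf-2(lf)* and 0.184, 0.409, 0.193 and 0.866 TPM in wild-type cells (log2 difference 3.12, SE 0.29, adjusted p = 5.03e-08). *hsp-12.6*, a small heat shock protein gene, was listed at 0 in all wild-type libraries and had 107, 4.65 and 28.4 TPM in *daf-2(lf)* (log2 difference 4.71, SE 0.59, adjusted p = 2.58e-06), a wide spread in which replicate 1 was highest. The metallothionein gene *mtl-1* did not pass the test at 81.7, 12.6 and 28.3 TPM in *daf-2(lf)* and 1.03, 10.5, 1.36 and 91.3 TPM in wild-type cells (log2 difference 1.92, SE 1.15, adjusted p = 0.223). Its groups overlapped.

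Other members of the raised class were lower. *mtl-2*, another metallothionein, had 43.7, 23.6 and 28.8 TPM in *daf-2(lf)* and 128, 143, 116 and 509 TPM in wild-type cells (log2 difference -2.52, SE 0.71, adjusted p = 0.00904). Wild-type replicate 4 was far above the rest. *dod-6* had 36.6, 36.4 and 33.1 TPM in *daf-2(lf)* and 131, 367, 295 and 136 TPM in wild-type cells (log2 difference -2.54, SE 0.67, adjusted p = 0.00548). In the lowered class, *dod-19* had 2.63, 3.69 and 4.48 TPM in *daf-2(lf)* and 86.3, 161, 112 and 144 TPM in wild-type cells (log2 difference -4.77, SE 0.58, adjusted p = 1.67e-06). *dod-17* had 0, 0.1 and 0.0478 TPM in *daf-2(lf)* and 3.32, 3.5, 3.04 and 2.63 TPM in wild-type cells (log2 difference -1.97, SE 0.58, adjusted p = 0.012). Both were separated without overlap. *mtl-2* is an intestinal metallothionein and is itself among the intestinal markers. Their lower sum in *daf-2(lf)*, given above, is therefore not separate from its fall.

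A list of candidate DAF-16 targets of muscle named in the study held 12 genes. All but tiar-3, which was not matched in the annotation used, were found, and these 11 rose, with a median of 1.94. The study chose them on these same libraries, so their direction is not independent evidence. *C54F6.5*, a gene of short transcript, had 1258, 301 and 897 TPM in *daf-2(lf)* and 2.24, 1.86, 2.84 and 2.44 TPM in wild-type cells (log2 difference 7.72, SE 0.59, adjusted p = 4.54e-09). *cex-1*, which encodes a calcium-binding calexcitin, had 599, 724 and 993 TPM in *daf-2(lf)* and 95.5, 120.0, 124 and 101 TPM in wild-type cells (log2 difference 2.78, SE 0.31, adjusted p = 6.78e-07). *mlcd-1*, which encodes malonyl-CoA decarboxylase, had 14.7, 13.3 and 15.4 TPM in *daf-2(lf)* and 3.52, 3.08, 4.34 and 1.68 TPM in wild-type cells (log2 difference 1.94, SE 0.35, adjusted p = 0.000198). *gstk-2*, a kappa-class glutathione S-transferase, had 29.6, 22.9 and 29.2 TPM in *daf-2(lf)* and 2.58, 1.76, 2.35 and 2.74 TPM in wild-type cells (log2 difference 3.07, SE 0.34, adjusted p = 4.75e-07). *F23D12.7* was the most abundant of them by TPM, with 3942, 3877 and 5227 TPM in *daf-2(lf)* and 344, 282, 270.0 and 430.0 TPM in wild-type cells (log2 difference 3.72, SE 0.24, adjusted p = 3.29e-10). In each of these genes the lowest *daf-2(lf)* value was at least 3 times the highest wild-type value. The others were *act-2*, *aqp-2* (an aquaporin), *ksr-1* (a scaffold of MAP kinase signaling), *goa-1* (a G protein alpha subunit), *unc-78* (which promotes actin filament disassembly) and *Y43F8B.1*, with log2 differences from 1.46 to 3.14. The paper also gives abundances from read counts without length correction. There *F23D12.7* lay below *Y43F8B.1*, *act-2*, *cex-1*, *aqp-2*, *unc-78* and *goa-1* in *daf-2(lf)* muscle cells. Its rank thus differed between the measures, and the part of transcript length in this was not tested.

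Heat shock genes moved in both directions within each class. Of 13 small heat shock protein genes 5 rose and 3 fell (median 0.28), and 1 fell without *daf-2(lf)* replicate 1 and 5 without *daf-2(lf)* replicate 2 or under quantile normalization. *hsp-25* had 586, 341 and 415 TPM in *daf-2(lf)* and 68.7, 60.3, 75.3 and 87.9 TPM in wild-type cells (log2 difference 2.57, SE 0.26, adjusted p = 1.42e-07). *hsp-12.1* had 145, 107 and 141 TPM in *daf-2(lf)* and 50.7, 42.5, 44.1 and 73.3 TPM in wild-type cells (log2 difference 1.32, SE 0.23, adjusted p = 0.000121). *hsp-16.41*, a stress-induced small heat shock protein, had 5.02, 55.9 and 22.5 TPM in *daf-2(lf)* and 137, 382, 242 and 605 TPM in wild-type cells (log2 difference -3.89, SE 0.67, adjusted p = 0.000105). *hsp-16.48* had 167, 2110.3 and 1245 TPM in *daf-2(lf)* and 4507, 5139, 4214 and 6985 TPM in wild-type cells (log2 difference -2.75, SE 0.84, adjusted p = 0.0152). This became -1.66, adjusted p = 0.156 without *daf-2(lf)* replicate 1. The hsp-16 genes are near-identical pairs among which reads can be split. The 5 of them together summed to 1789 ± 1484 TPM in *daf-2(lf)* and 6838 ± 1951 TPM in wild-type cells (SD, n = 3 and n = 4).

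Of 26 genes of larger and organelle chaperones, 13 rose and 4 fell (median 0.97), against 8 rises under quantile normalization. *cct-8*, a subunit of the cytosolic chaperonin that folds actin and tubulin, had 88.4, 182 and 145 TPM in *daf-2(lf)* and 11.8, 15.3, 20.5 and 18.6 TPM in wild-type cells (log2 difference 2.95, SE 0.36, adjusted p = 2.18e-06). *unc-45*, the myosin chaperone, had 45.3, 84 and 74.9 TPM in *daf-2(lf)* and 12.2, 14.2, 18.6 and 16.7 TPM in wild-type cells (log2 difference 2.04, SE 0.34, adjusted p = 8.12e-05). *hsp-6*, the mitochondrial HSP70, had 146, 166 and 166 TPM in *daf-2(lf)* and 40.9, 36.9, 59.8 and 32.8 TPM in wild-type cells (log2 difference 1.91, SE 0.25, adjusted p = 3.57e-06). All 3 were separated from the wild type in every library. The falls included *enpl-1*, the HSP90 of the endoplasmic reticulum, with 21.8, 26.3 and 18.6 TPM in *daf-2(lf)* and 94.1, 132, 145 and 72.7 TPM in wild-type cells (log2 difference -2.23, SE 0.36, adjusted p = 4.74e-05). Another was *sti-1*, an HSP90 co-chaperone, with 45.1, 103.7 and 76 TPM in *daf-2(lf)* and 172, 169.6, 170.0 and 159 TPM in wild-type cells (log2 difference -1.23, SE 0.29, adjusted p = 0.00225). The inducible HSP70 gene *F44E5.4* had 0, 103 and 10.4 TPM in *daf-2(lf)* and 176, 465, 369 and 221 TPM in wild-type cells (log2 difference -4.76, SE 1.02, adjusted p = 0.000964). Without *daf-2(lf)* replicate 1 this was -3.06, adjusted p = 0.0109. The sum with its copy *F44E5.5* was 115 ± 140 TPM in *daf-2(lf)* and 658 ± 276 TPM in wild-type cells. The cytosolic HSP90 gene *hsp-90* did not pass the test at 295, 661 and 425 TPM in *daf-2(lf)* and 682, 649, 729 and 489 TPM in wild-type cells (log2 difference -0.53, SE 0.25, adjusted p = 0.115).

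Sarcomere genes, among the most abundant of these cells, moved in both directions, with some members far higher and others far lower in *daf-2(lf)*. Of 22 thin filament genes 13 rose and 6 fell (median 1.4), yet their summed abundance was lower, at 95817 ± 6172 TPM in *daf-2(lf)* and 266050 ± 33093 TPM in wild-type muscle cells. The genes that fell included *pat-10*, the most abundant of them. *pat-10*, body wall muscle troponin C, had 22989, 23706 and 21623 TPM in *daf-2(lf)* and 119800, 110440, 104290 and 88780 TPM in wild-type cells (log2 difference -2.21, SE 0.16, adjusted p = 2.74e-09). Every wild-type library was above every *daf-2(lf)* library. *cpn-3*, a calponin, had 8249, 5014 and 7899.6 TPM in *daf-2(lf)* and 43127, 38952, 35654 and 37361 TPM in wild-type cells (log2 difference -2.49, SE 0.18, adjusted p = 2.91e-09). *clik-1*, a calponin-like protein of muscle, had 6589, 5431 and 5704 TPM in *daf-2(lf)* and 34012, 30809, 29278 and 20815 TPM in wild-type cells (log2 difference -2.26, SE 0.24, adjusted p = 3.96e-07). *lev-11*, tropomyosin, had 9128, 7673 and 7765 TPM in *daf-2(lf)* and 22604, 23633, 24006 and 14596 TPM in wild-type cells (log2 difference -1.35, SE 0.24, adjusted p = 0.000161). Wild-type replicate 4 was the lowest of its group. *tnc-2*, a pharyngeal troponin C, had 1.65, 1.74 and 2.15 TPM in *daf-2(lf)* and 59.8, 101, 94.6 and 45 TPM in wild-type cells (log2 difference -4.67, SE 0.41, adjusted p = 2.95e-08). *tnc-2* is itself among the pharyngeal markers and makes up much of their sum in wild-type cells. Its fall is therefore not separate from the lower sum of these markers.

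Other thin filament genes rose just as clearly. *unc-60*, ADF/cofilin, had 2025, 1594 and 1875 TPM in *daf-2(lf)* and 185, 189, 208 and 310.3 TPM in wild-type cells (log2 difference 3.06, SE 0.22, adjusted p = 1.33e-09). *unc-87*, an actin-bundling protein with calponin-like repeats, had 3347, 3022 and 2820.1 TPM in *daf-2(lf)* and 412, 496, 595 and 593 TPM in wild-type cells (log2 difference 2.56, SE 0.22, adjusted p = 2.14e-08). *tnt-2*, a troponin T, had 4444, 3380.1 and 3363 TPM in *daf-2(lf)* and 625, 634, 804 and 763 TPM in wild-type cells (log2 difference 2.39, SE 0.24, adjusted p = 1.97e-07). None of these overlapped between the groups. The actin genes diverged from each other: *act-1* had 19630, 16902 and 18068 TPM in *daf-2(lf)* and 3720.3, 3646, 4423 and 5696 TPM in wild-type cells (log2 difference 2.08, SE 0.21, adjusted p = 1.99e-07). *act-4* had 9011, 7511 and 7746 TPM in *daf-2(lf)* and 62484, 66843, 65159 and 41283 TPM in wild-type cells (log2 difference -2.84, SE 0.27, adjusted p = 7.22e-08). Actin genes are nearly identical in coding sequence, so reads can be assigned to the wrong copy. The sum of *act-1*, *act-2*, *act-3* and *act-4* was 32879 ± 1831 TPM in *daf-2(lf)* and 66648 ± 10704 TPM in wild-type cells (SD, n = 3 and n = 4).

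Of 15 thick filament and M-line genes 2 rose and 6 fell (median -0.60), or 3 fell without *daf-2(lf)* replicate 3, with sums of 40225 ± 5581 TPM in *daf-2(lf)* and 74664 ± 11150 TPM in wild-type muscle cells. *unc-15*, paramyosin, had 4170.2, 2922 and 2599 TPM in *daf-2(lf)* and 18997, 17369, 18908 and 6588 TPM in wild-type cells (log2 difference -2.17, SE 0.41, adjusted p = 0.000304). Its lowest wild-type library, replicate 4, still lay above all *daf-2(lf)* libraries. *unc-54*, the major myosin heavy chain, had 4064, 3447 and 2572 TPM in *daf-2(lf)* and 13868, 11291, 13749 and 4319.5 TPM in wild-type cells (log2 difference -1.57, SE 0.48, adjusted p = 0.0156). Without *daf-2(lf)* replicate 3 this was -1.39, adjusted p = 0.0699. *myo-3*, the other body wall myosin heavy chain, did not pass the test at 186, 171 and 58.9 TPM in *daf-2(lf)* and 63.8, 127, 204 and 75.8 TPM in wild-type cells (log2 difference 0.22, SE 0.66, adjusted p = 0.859). Its groups overlapped. The giant protein gene *unc-89* (obscurin) had 40.3, 28.6 and 18.8 TPM in *daf-2(lf)* and 128, 154, 218 and 49 TPM in wild-type cells (log2 difference -2.07, SE 0.51, adjusted p = 0.00323). Among the light chains, *mlc-3*, the essential light chain, had 15591, 11641 and 12416 TPM in *daf-2(lf)* and 38969, 36488, 34121 and 36797 TPM in wild-type cells (log2 difference -1.48, SE 0.17, adjusted p = 1.2e-06). The regulatory light chain gene *mlc-2* had 15881, 12075 and 13753 TPM in *daf-2(lf)* and 1790.1, 1608, 1788 and 2958 TPM in wild-type cells (log2 difference 2.81, SE 0.23, adjusted p = 1.05e-08). The sum of *mlc-2* and its close copy *mlc-1* was 19875 ± 2230 TPM in *daf-2(lf)* and 11107 ± 642 TPM in wild-type cells. *unc-96*, an M-line protein, rose to 97.1 ± 7.83 TPM in *daf-2(lf)* and 22.6 ± 3.62 TPM in wild-type muscle cells (log2 difference 2.07, SE 0.26, adjusted p = 2.44e-06).

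Genes of the attachment of muscle to its surroundings moved in both directions. Of 18 genes of the dense body, which anchors thin filaments to the membrane, 8 rose and 2 fell (median 0.73), or 7 and 4 under either other scaling. *atn-1*, alpha-actinin, had 541, 469 and 386 TPM in *daf-2(lf)* and 111, 119, 161 and 130.2 TPM in wild-type cells (log2 difference 1.83, SE 0.21, adjusted p = 1.04e-06). *unc-95*, a LIM-domain protein of the dense body, had 249, 254 and 230.2 TPM in *daf-2(lf)* and 69.6, 62.9, 75.4 and 76.9 TPM in wild-type cells (log2 difference 1.77, SE 0.22, adjusted p = 1.92e-06). *dim-1*, an immunoglobulin-repeat protein near the muscle membrane, had 2149, 2649 and 2219.7 TPM in *daf-2(lf)* and 557, 624, 871 and 586 TPM in wild-type cells (log2 difference 1.84, SE 0.23, adjusted p = 2.68e-06). *zyx-1*, zyxin, fell, with 499, 509 and 529 TPM in *daf-2(lf)* and 1782, 1779, 1868 and 1019.9 TPM in wild-type cells (log2 difference -1.61, SE 0.26, adjusted p = 6.22e-05). Of 15 basement membrane genes 5 rose and 3 fell, with a median of 0.27 that was -0.02 under median-of-ratios scaling and -0.03 under quantile normalization. The type IV collagen chains, which assemble together, went apart. *emb-9* had 564, 564 and 427 TPM in *daf-2(lf)* and 301, 275, 333 and 306 TPM in wild-type cells (log2 difference 0.76, SE 0.19, adjusted p = 0.00314). *let-2* had 1142, 1211 and 839 TPM in *daf-2(lf)* and 4012, 3587, 3601 and 1255 TPM in wild-type cells (log2 difference -1.43, SE 0.44, adjusted p = 0.0158). The largest *daf-2(lf)* value of *let-2* was close to that of wild-type replicate 4, and its call was lost without *daf-2(lf)* replicate 3 (-1.27, adjusted p = 0.0704). The call of *emb-9* was lost under both other scalings. *ost-1*, the SPARC homologue, had 4305, 3616 and 3409 TPM in *daf-2(lf)* and 9720.4, 10151, 10331 and 6237 TPM in wild-type cells (log2 difference -1.25, SE 0.22, adjusted p = 0.000113).

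Of 29 genes of calcium handling and excitability 11 rose and 4 fell (median 0.53). *sca-1*, the calcium pump of the sarcoplasmic reticulum, had 1694, 1067 and 905 TPM in *daf-2(lf)* and 370.5, 325, 434 and 402 TPM in wild-type cells (log2 difference 1.63, SE 0.21, adjusted p = 3.77e-06). *csq-1*, calsequestrin, had 1785, 1112 and 1201 TPM in *daf-2(lf)* and 446, 389, 477 and 561 TPM in wild-type cells (log2 difference 1.52, SE 0.20, adjusted p = 4.55e-06). *mca-3*, a plasma membrane calcium pump, had 161, 141 and 118 TPM in *daf-2(lf)* and 30.4, 33.1, 50.0 and 35.3 TPM in wild-type cells (log2 difference 1.90, SE 0.24, adjusted p = 3.14e-06). *jph-1*, junctophilin, which ties the reticulum to the cell membrane, had 55.1, 53.5 and 42.7 TPM in *daf-2(lf)* and 8.88, 8.91, 13.04 and 9.17 TPM in wild-type cells (log2 difference 2.23, SE 0.41, adjusted p = 0.000207). *unc-103*, an ERG-type potassium channel, had 14.5, 11.2 and 11.2 TPM in *daf-2(lf)* and 1.44, 1.88, 1.8 and 1.78 TPM in wild-type cells (log2 difference 2.28, SE 0.30, adjusted p = 5.52e-06). None of these genes had overlapping groups. *sup-9* and *sup-10*, a potassium leak channel and its regulatory subunit, fell together. *sup-9* had 22.3, 27.1 and 24.6 TPM in *daf-2(lf)* and 200.2, 163, 139 and 90.8 TPM in wild-type cells (log2 difference -2.49, SE 0.29, adjusted p = 1.17e-06). *sup-10* had 11.8, 12.5 and 10.6 TPM in *daf-2(lf)* and 107, 108, 128 and 43.7 TPM in wild-type cells (log2 difference -2.85, SE 0.40, adjusted p = 1e-05). *unc-36*, an auxiliary subunit of calcium channels, had 7.3, 4.64 and 3.9 TPM in *daf-2(lf)* and 17.3, 17.1, 27.7 and 22.4 TPM in wild-type cells (log2 difference -1.83, SE 0.44, adjusted p = 0.00257). *egl-19*, the L-type calcium channel of muscle, did not pass the test at 18.6, 15.1 and 8.05 TPM in *daf-2(lf)* and 8.24, 9.37, 15 and 5.25 TPM in wild-type cells (log2 difference 0.52, SE 0.46, adjusted p = 0.44).

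Of 24 genes of the neuromuscular junction 9 rose and 3 fell (median 0.55), against 6 rises under median-of-ratios scaling. Subunits of the levamisole-sensitive acetylcholine receptor parted: *unc-63* had 6.67, 9.81 and 8.06 TPM in *daf-2(lf)* and 0.467, 0.463, 0.736 and 0.262 TPM in wild-type cells (log2 difference 2.63, SE 0.35, adjusted p = 6e-06). *lev-1* had 26.4, 36.4 and 32 TPM in *daf-2(lf)* and 168, 164, 162 and 54.7 TPM in wild-type cells (log2 difference -1.96, SE 0.43, adjusted p = 0.00113). *unc-29*, another subunit, did not pass the test at 9.38, 16.5 and 14.8 TPM in *daf-2(lf)* and 5.49, 5.73, 6.9 and 8.54 TPM in wild-type cells (log2 difference 0.91, SE 0.36, adjusted p = 0.0568). *unc-49*, the GABA receptor of muscle, had 84.5, 71.8 and 73.3 TPM in *daf-2(lf)* and 283, 307, 252 and 134 TPM in wild-type cells (log2 difference -1.60, SE 0.33, adjusted p = 0.000693). Wild-type replicate 4 was again the nearest to *daf-2(lf)*.

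**Figure D2:**
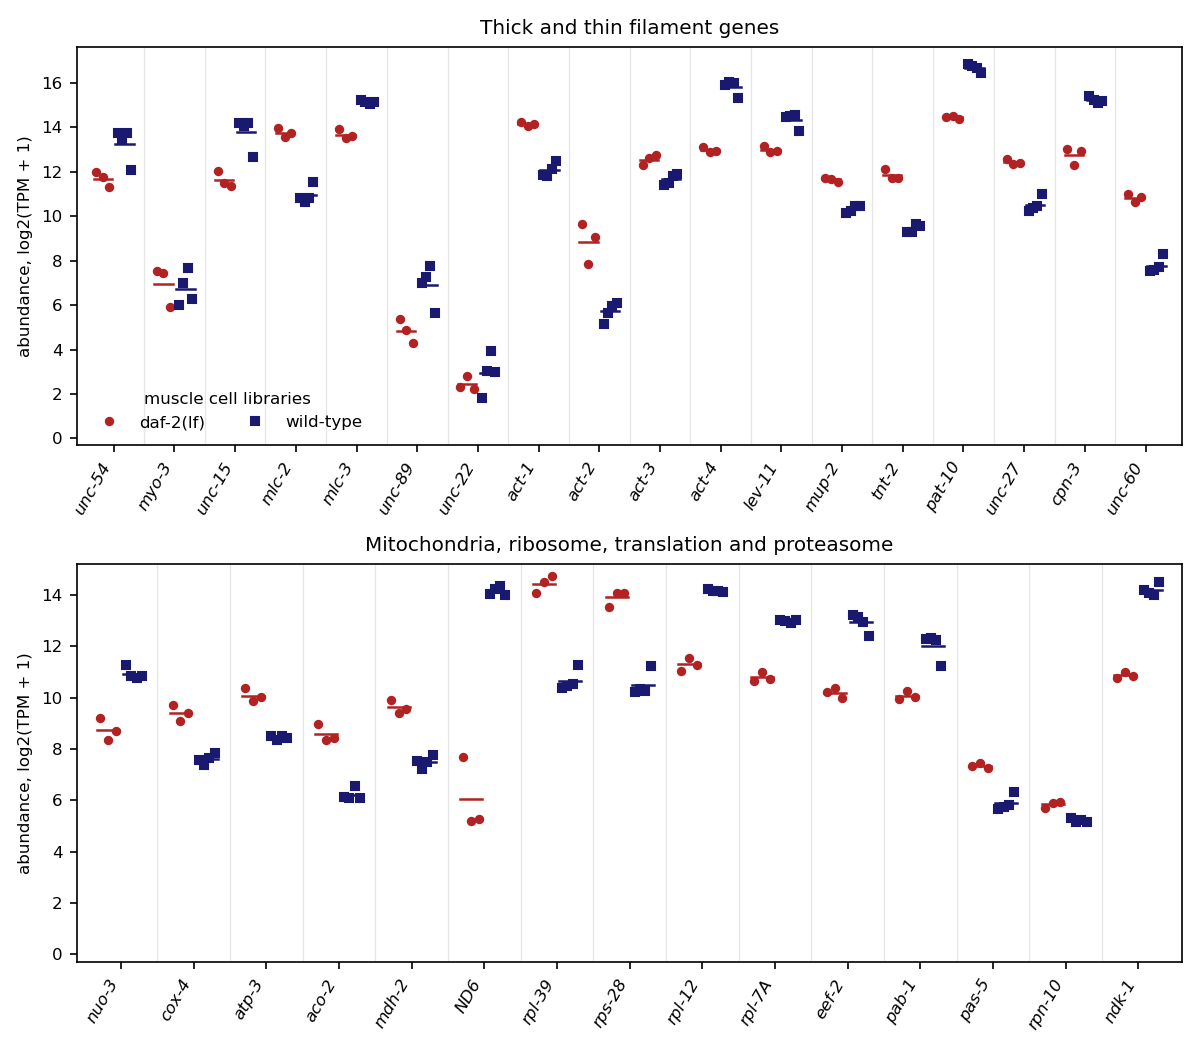
Abundance as log2(TPM + 1) of sarcomere genes in the upper panel and of mitochondrial, ribosomal and proteasome genes in the lower panel, with 1 point per library (*daf-2(lf)* left of wild-type for each gene) and a bar at the group mean. The *daf-2(lf)* points lie above all wild-type points in *mlc-2*, *act-1*, *unc-60* and *rpl-39* and below all of them in *pat-10*, *act-4*, *rpl-12* and *ND6*.

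Nuclear genes of energy metabolism rose more often than they fell in *daf-2(lf)* muscle cells. Of 43 nuclear genes of the respiratory chain 38 rose and 2 fell (median 1.82), with sums of 34607 ± 7334 TPM in *daf-2(lf)* and 20475 ± 2019.6 TPM in wild-type muscle cells. *asg-2*, a subunit of ATP synthase, had 1477, 1049 and 1202 TPM in *daf-2(lf)* and 211, 181, 213 and 249 TPM in wild-type cells (log2 difference 2.53, SE 0.21, adjusted p = 1.16e-08). *cyc-1*, cytochrome c1 of complex III, had 606, 368 and 431 TPM in *daf-2(lf)* and 76.2, 66.7, 81.9 and 98.8 TPM in wild-type cells (log2 difference 2.50, SE 0.21, adjusted p = 1.19e-08). *nuo-6*, a complex I subunit, had 573, 450.1 and 528 TPM in *daf-2(lf)* and 90.9, 76.5, 85.6 and 138 TPM in wild-type cells (log2 difference 2.42, SE 0.24, adjusted p = 1.72e-07). In mean TPM *daf-2(lf)* was 5.82 times the wild type for *asg-2*, 5.79 times for *cyc-1* and 5.28 times for *nuo-6*. The exceptions were *atp-1*, the alpha subunit of ATP synthase, and *nuo-3* of complex I. *atp-1* had 2577, 1492 and 1589 TPM in *daf-2(lf)* and 10946, 9149.8, 8969 and 5566 TPM in wild-type cells (log2 difference -2.20, SE 0.29, adjusted p = 5.43e-06). *nuo-3* had 589.9, 324 and 413 TPM in *daf-2(lf)* and 2474, 1837, 1746 and 1840.2 TPM in wild-type cells (log2 difference -2.18, SE 0.21, adjusted p = 9.93e-08). In both, every wild-type library was above every *daf-2(lf)* library.

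Of 12 genes of the mitochondrial genome, a list added after values had been seen, none rose and 6 fell (median -1.97), or 10 under quantile normalization, with sums of 6600 ± 3393 TPM in *daf-2(lf)* and 38375 ± 5062 TPM in wild-type muscle cells. *ND6*, a complex I subunit, had 204, 35.6 and 37.3 TPM in *daf-2(lf)* and 16799, 18969, 20885 and 16136 TPM in wild-type cells (log2 difference -8.10, SE 0.60, adjusted p = 2.91e-09). This was the largest fall of the comparison among genes whose groups did not overlap. *daf-2(lf)* replicate 1 was the highest of its group and still far below the wild type. *ND6* overlaps *MTCE.4* in the annotation, which had 372, 31.1 and 52.1 TPM in *daf-2(lf)* and 4260.5, 5145, 6088 and 4285 TPM in wild-type cells (log2 difference -5.83, SE 0.99, adjusted p = 9.63e-05).

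No gene of the TCA cycle fell, and 19 of 24 rose (median 1.4). *aco-2*, mitochondrial aconitase, had 499.7, 326 and 347 TPM in *daf-2(lf)* and 69, 66.4, 92.4 and 66.1 TPM in wild-type cells (log2 difference 2.38, SE 0.22, adjusted p = 4.75e-08). *idha-1*, an isocitrate dehydrogenase subunit, had 497, 303 and 346 TPM in *daf-2(lf)* and 77.5, 60.3, 84.7 and 84.2 TPM in wild-type cells (log2 difference 2.28, SE 0.22, adjusted p = 9.87e-08). *mdh-2*, malate dehydrogenase, had 954, 672 and 760.4 TPM in *daf-2(lf)* and 185, 147, 177 and 216 TPM in wild-type cells (log2 difference 2.13, SE 0.20, adjusted p = 9.44e-08). Of 24 genes of glycolysis and gluconeogenesis 17 rose and 2 fell (median 1.36). Among them *tpi-1*, triosephosphate isomerase, had 477, 453 and 522 TPM in *daf-2(lf)* and 96, 80.1, 96.6 and 169 TPM in wild-type cells (log2 difference 2.18, SE 0.26, adjusted p = 1.22e-06). *enol-1*, enolase, had 1784, 1039.6 and 1312 TPM in *daf-2(lf)* and 295, 261, 299.5 and 458 TPM in wild-type cells (log2 difference 2.07, SE 0.23, adjusted p = 5.58e-07). *pfk-1.1*, phosphofructokinase, rose by 1.94. The falls were *aldo-2*, an aldolase, at -2.44 (adjusted p = 0.00166), and *pck-2*, phosphoenolpyruvate carboxykinase. *pck-2* had 754, 531 and 707 TPM in *daf-2(lf)* and 2353, 2172, 1788 and 1099.6 TPM in wild-type cells (log2 difference -1.44, SE 0.29, adjusted p = 0.000483).

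Of 18 genes of the glyoxylate cycle, trehalose and glycogen 7 rose and 2 fell (median 0.54), or 4 rose without *daf-2(lf)* replicate 1. Of the genes of glycogen assembly, *gyg-1*, glycogenin, had 750.1, 923 and 934 TPM in *daf-2(lf)* and 131, 136, 177 and 152 TPM in wild-type cells (log2 difference 2.54, SE 0.21, adjusted p = 1.21e-08). *gsy-1*, glycogen synthase, had 151, 112 and 123 TPM in *daf-2(lf)* and 28.1, 25.9, 30.8 and 58.6 TPM in wild-type cells (log2 difference 1.89, SE 0.26, adjusted p = 8.15e-06). The other glycogenin gene, *gyg-2*, did not pass the test at 3.38, 1.41 and 1.25 TPM in *daf-2(lf)* and 0.329, 0.545, 0.467 and 1.04 TPM in wild-type cells (log2 difference 0.87, SE 0.47, adjusted p = 0.178). *tre-1*, a trehalase, had 21.4, 17.2 and 15.6 TPM in *daf-2(lf)* and 127, 119, 154 and 36.1 TPM in wild-type cells (log2 difference -2.36, SE 0.52, adjusted p = 0.0014). Wild-type replicate 4 was well below the rest of its group. Of 42 genes of fatty acid oxidation 14 rose and 5 fell (median 0.17), against 11 and 10 under median-of-ratios scaling, and 3 fell without wild-type replicate 4 or *daf-2(lf)* replicate 2 or 3. *ech-5*, an enoyl-CoA hydratase, had 52.7, 43.8 and 48.2 TPM in *daf-2(lf)* and 2.76, 1.95, 2.55 and 2.72 TPM in wild-type cells (log2 difference 3.82, SE 0.28, adjusted p = 1.96e-09). *acs-2*, an acyl-CoA synthetase of mitochondrial beta-oxidation, had 295, 226 and 360.4 TPM in *daf-2(lf)* and 54.9, 46.9, 38 and 39 TPM in wild-type cells (log2 difference 2.68, SE 0.50, adjusted p = 0.000276). *cpt-1*, a carnitine palmitoyltransferase, had 98.1, 38.6 and 55.6 TPM in *daf-2(lf)* and 12.6, 10.2, 10.2 and 13.1 TPM in wild-type cells (log2 difference 2.29, SE 0.40, adjusted p = 0.000118). *acdh-1*, an acyl-CoA dehydrogenase, had 23, 20.2 and 21.4 TPM in *daf-2(lf)* and 75.2, 93.5, 111 and 124 TPM in wild-type cells (log2 difference -2.15, SE 0.57, adjusted p = 0.00548).

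Of 30 genes of superoxide dismutases, catalases and redox balance 13 rose and 6 fell (median 0.95). Besides *sod-3* and *sod-5*, the dismutase genes *sod-1* and *sod-2* rose. *sod-1* (cytosolic) had 239.6, 170.3 and 186 TPM in *daf-2(lf)* and 47.6, 42, 46.1 and 69.8 TPM in wild-type cells (log2 difference 1.94, SE 0.29, adjusted p = 1.99e-05). *sod-2* (mitochondrial) had 247, 174 and 200.1 TPM in *daf-2(lf)* and 51.3, 46.6, 56.8 and 62.5 TPM in wild-type cells (log2 difference 1.91, SE 0.23, adjusted p = 1.3e-06). *sod-4*, the extracellular dismutase, did not pass the test at 5.21, 2.25 and 4.35 TPM in *daf-2(lf)* and 1.03, 1.35, 1.31 and 1.57 TPM in wild-type cells (log2 difference 1.05, SE 0.46, adjusted p = 0.0906). *gpx-2*, a glutathione peroxidase, had 90.2, 58.5 and 93.9 TPM in *daf-2(lf)* and 5.84, 4.82, 6.98 and 7.86 TPM in wild-type cells (log2 difference 3.46, SE 0.39, adjusted p = 7.38e-07). *ctl-3*, a catalase, had 25.5, 8.73 and 11 TPM in *daf-2(lf)* and 0.63, 0.779, 1.04 and 2.3 TPM in wild-type cells (log2 difference 2.79, SE 0.34, adjusted p = 1.7e-06), although the catalase genes are near-identical copies. *trx-2*, mitochondrial thioredoxin, had 96.9, 104.1 and 107 TPM in *daf-2(lf)* and 18, 17.9, 24.2 and 20.9 TPM in wild-type cells (log2 difference 2.29, SE 0.27, adjusted p = 1.36e-06). The falls included *gpx-6*, another glutathione peroxidase, with 1.81, 3.44 and 5.82 TPM in *daf-2(lf)* and 27.9, 27.9, 26.5 and 22.6 TPM in wild-type cells (log2 difference -2.62, SE 0.34, adjusted p = 4.14e-06). Another was *ftn-2*, a ferritin that stores iron, with 17.9, 16.1 and 16.6 TPM in *daf-2(lf)* and 56.4, 56.8, 62.6 and 80.2 TPM in wild-type cells (log2 difference -1.85, SE 0.44, adjusted p = 0.00258). Each of these genes was separated between the groups in every library.

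Of 80 cytosolic ribosomal protein genes 72 rose and 2 fell (median 1.71), and their sum was 343480 ± 43431 TPM in *daf-2(lf)* and 124400 ± 29251 TPM in wild-type muscle cells. They took more of each *daf-2(lf)* library than of any wild-type library. Short transcripts led the rise: *rpl-39* had 17124, 23404 and 27063 TPM in *daf-2(lf)* and 1323, 1383, 1459 and 2452 TPM in wild-type cells (log2 difference 3.79, SE 0.29, adjusted p = 4.08e-09). *rpl-29* had 19149, 25720 and 23702 TPM in *daf-2(lf)* and 1621, 1629, 1826 and 2272 TPM in wild-type cells (log2 difference 3.64, SE 0.19, adjusted p = 1.78e-11). *rps-28* had 11852, 17438 and 17269 TPM in *daf-2(lf)* and 1176, 1279, 1228 and 2406 TPM in wild-type cells (log2 difference 3.40, SE 0.31, adjusted p = 4.99e-08). The 2 that fell were *rpl-12* and *rpl-7A*. *rpl-12* had 2107, 3010.4 and 2462 TPM in *daf-2(lf)* and 19085, 18388, 18148 and 17739 TPM in wild-type cells (log2 difference -2.87, SE 0.13, adjusted p = 2e-12). *rpl-7A* had 1615, 2016 and 1686 TPM in *daf-2(lf)* and 8223, 8073, 7599 and 8295 TPM in wild-type cells (log2 difference -2.19, SE 0.15, adjusted p = 8.72e-10). In both the wild-type libraries were nearly equal to each other and far above all *daf-2(lf)* libraries. *rpl-17* did not pass the test, at 2887, 3528 and 3242 TPM in *daf-2(lf)* and 3519, 3255, 3056 and 4271 TPM in wild-type cells (log2 difference -0.12, SE 0.20, adjusted p = 0.708).

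Of 66 mitochondrial ribosomal protein genes 40 rose and none fell (median 1.01), or 26 rose without *daf-2(lf)* replicate 2. Of 32 translation factors 18 rose and 4 fell (median 1.09). Yet their summed abundance was lower, at 13648 ± 1976 TPM in *daf-2(lf)* and 29704 ± 3139.9 TPM in wild-type muscle cells. The 4 that fell were the most abundant of the list in wild-type cells. *eif-3.I*, a subunit of initiation factor eIF3, had 96.2, 175 and 117 TPM in *daf-2(lf)* and 7.82, 8.81, 12.1 and 15.3 TPM in wild-type cells (log2 difference 3.44, SE 0.29, adjusted p = 1.19e-08). *eef-2*, an elongation factor, had 1181, 1340.1 and 1017 TPM in *daf-2(lf)* and 9487, 9006, 7938 and 5385 TPM in wild-type cells (log2 difference -2.73, SE 0.24, adjusted p = 2.77e-08). *eef-1G*, elongation factor 1 gamma, had 1191, 1369 and 1222 TPM in *daf-2(lf)* and 10193, 9314, 8339 and 6831 TPM in wild-type cells (log2 difference -2.77, SE 0.18, adjusted p = 3.75e-10). *pab-1*, the poly(A)-binding protein, had 993, 1206 and 1038 TPM in *daf-2(lf)* and 5005, 5175, 4865 and 2401 TPM in wild-type cells (log2 difference -1.95, SE 0.31, adjusted p = 3.68e-05). All 3 were below the wild type in every *daf-2(lf)* library. Of 33 proteasome genes 32 rose and none fell (median 1.46). *rpn-8*, of the regulatory lid, had 70.6, 66.2 and 58 TPM in *daf-2(lf)* and 9.31, 13.4, 17.6 and 12.9 TPM in wild-type cells (log2 difference 2.23, SE 0.35, adjusted p = 4.28e-05). *pbs-6*, a beta subunit of the core, had 125, 146 and 154 TPM in *daf-2(lf)* and 29.1, 31.3, 35 and 48.1 TPM in wild-type cells (log2 difference 1.97, SE 0.25, adjusted p = 3.02e-06).

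**Figure D3:**
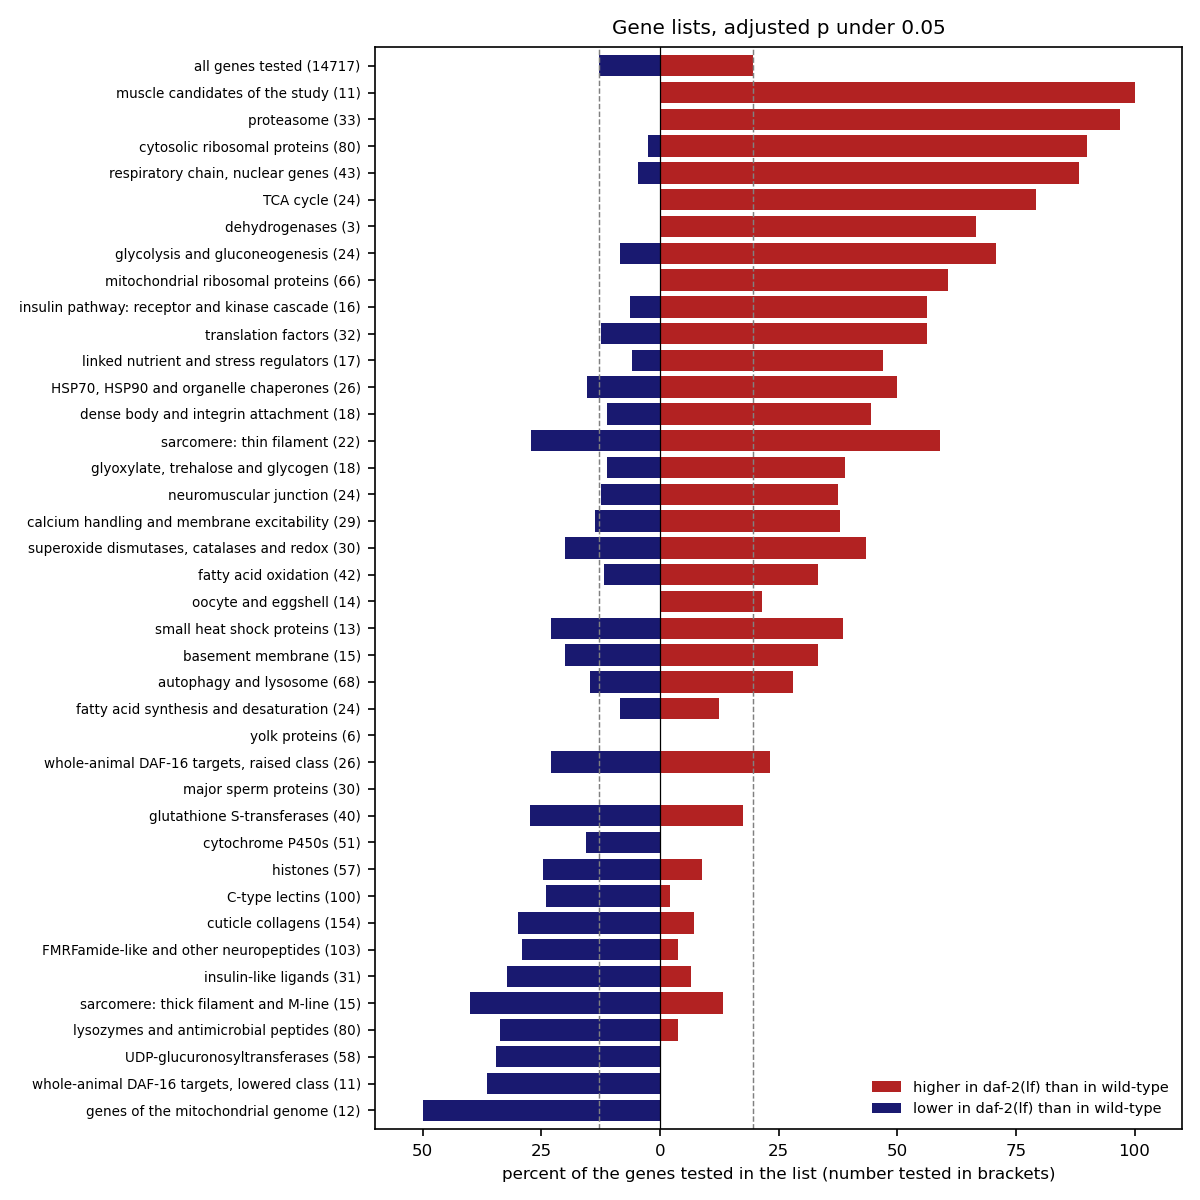
Share of the tested members of each gene list (number tested in brackets) that were higher (to the right) or lower (to the left) in *daf-2(lf)* than in wild-type muscle cells at an adjusted p under 0.05, in percent, with the shares over all tested genes, 19.6% and 12.9%, as dashed lines. Proteasome, ribosomal protein, respiratory chain and TCA cycle genes lie mostly to the right, and UDP-glucuronosyltransferases, collagens, neuropeptides and antimicrobial genes mostly to the left.

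Several lists of genes used mainly by cells other than muscle held more falls than rises. Of 154 cuticle collagen genes, products of the hypodermis, 11 rose and 46 fell (median -0.58). The rises numbered 6 without *daf-2(lf)* replicate 1 and 23 with a pseudocount of 0.1 or with the muscle libraries fitted alone. The collagen sums were 1893 ± 1065 TPM in *daf-2(lf)* and 11515 ± 10144 TPM in wild-type muscle cells, and 6474 ± 1360 TPM in wild-type cells without replicate 4 (n = 3). *col-34* had 0.373, 0.815 and 0.539 TPM in *daf-2(lf)* and 11.7, 35.9, 19.1 and 48.6 TPM in wild-type cells (log2 difference -4.06, SE 0.76, adjusted p = 0.000277). The transmembrane collagen gene *col-99* went the other way, with 15.9, 23.3 and 18.7 TPM in *daf-2(lf)* and 0.212, 0.518, 0.356 and 1.01 TPM in wild-type cells (log2 difference 3.75, SE 0.28, adjusted p = 3.18e-09). Of 80 lysozyme and antimicrobial peptide genes 3 rose and 27 fell (median -0.87), with 6 rises without *daf-2(lf)* replicate 2. *fipr-5*, of a fungus-induced family of near copies, had 2.58, 2.77 and 2.51 TPM in *daf-2(lf)* and 96.9, 152, 156 and 35.1 TPM in wild-type cells (log2 difference -4.73, SE 0.56, adjusted p = 1.31e-06). *spp-10*, a saposin-like gene, had 1181, 887 and 1097 TPM in *daf-2(lf)* and 235, 271, 278 and 378 TPM in wild-type cells (log2 difference 1.87, SE 0.25, adjusted p = 5.81e-06). Of 100 C-type lectins 2 rose and 24 fell (median -0.36), with 38 falls under median-of-ratios scaling.

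Of 103 neuropeptide genes 4 rose and 30 fell (median -0.33). *nlp-64* had 0.494, 0.293 and 0.836 TPM in *daf-2(lf)* and 15.6, 22.3, 25.3 and 10.4 TPM in wild-type cells (log2 difference -3.60, SE 0.36, adjusted p = 1.37e-07). *flp-15* had 0.515, 2.52 and 0.774 TPM in *daf-2(lf)* and 10.9, 27.6, 21.2 and 51.2 TPM in wild-type cells (log2 difference -3.57, SE 0.58, adjusted p = 5.85e-05). Among genes of detoxification, 20 of 58 UDP-glucuronosyltransferases fell and none rose (median -0.78), or 34 fell under median-of-ratios scaling or with a pseudocount of 0.1. Of 51 cytochrome P450s 8 fell and none rose (median -0.34), a share of falls near the 12.9% of all genes. *ugt-62* had 0.465, 1.15 and 1.89 TPM in *daf-2(lf)* and 10.1, 24.4, 20.6 and 13.9 TPM in wild-type cells (log2 difference -3.05, SE 0.55, adjusted p = 0.00019). Of 40 glutathione S-transferases 7 rose and 11 fell (median -0.31), or 7 fell without *daf-2(lf)* replicate 2. Their share of rises was near the 19.6% of all genes. *gst-20* had 3.09, 4.34 and 5.27 TPM in *daf-2(lf)* and 33.3, 43.5, 51.2 and 85.1 TPM in wild-type cells (log2 difference -3.31, SE 0.58, adjusted p = 0.000133). The summed intestinal, hypodermal and neuronal markers were lower in all *daf-2(lf)* libraries, as given above. The hypodermal markers are themselves cuticle collagen genes, so their sum is not separate from the collagen falls. The part of these cells in the falls was not tested.

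The genes of largest change were mostly of short transcripts. Among called genes whose groups did not overlap, the 15 largest rises spanned log2 differences of 5.07 to 9.85 (*sod-3* to *nola-3*). Of these, 12 had a mean transcript length under 500 bases, as did 12.6% of all tested genes. Of the 15 largest falls, of 5.40 to 8.10 in size, 9 did. *nola-3*, whose name marks an H/ACA ribonucleoprotein subunit, was listed at 0 in all wild-type libraries and had 586, 1566 and 845 TPM in *daf-2(lf)* (log2 difference 9.85, SE 0.27, adjusted p = 4.83e-16). *T09F3.7*, *T04C10.11*, *R12B2.13* and *C53H9.4* showed the same pattern, with 425, 221 and 251 TPM, 192, 248 and 414 TPM, 193, 129 and 144 TPM and 85.6, 549 and 914 TPM in *daf-2(lf)*. In all, 9 genes were listed at 0 in all 4 wild-type libraries and had 10 TPM or more in all 3 *daf-2(lf)* libraries, and 3 genes had the reverse pattern. Of the 15 largest rises, 9 overlap another annotated protein-coding gene, the 5 named here among them, as do 4 of the 15 largest falls. The share over all tested genes was not counted, so these counts have no background. The strand setting of the read assignment is not given in the sources used here.

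An exception of usual length was *mct-2*, of the monocarboxylate transporter family, with 81.1, 61.2 and 44.6 TPM in *daf-2(lf)* and 0.271, 0.062, 0.358 and 0.26 TPM in wild-type cells (log2 difference 5.64, SE 0.42, adjusted p = 2.91e-09). Among the falls, *F46A8.7* and *nspc-15* were listed at 0 in all *daf-2(lf)* libraries, against 95.8, 102, 63.4 and 73.8 TPM and 29.1, 72.8, 104.2 and 32.1 TPM in wild-type cells. *W03G11.3*, of longer transcript, had 0, 0.0117 and 0.0111 TPM in *daf-2(lf)* and 41.6, 76.7, 80.2 and 24.9 TPM in wild-type cells (log2 difference -5.67, SE 0.37, adjusted p = 4.28e-10). By change of mean TPM, the largest gain was that of *txt-14*, with 22969, 24811 and 32742 TPM in *daf-2(lf)* and 1145, 852, 1030.4 and 1263 TPM in wild-type cells (log2 difference 4.64, SE 0.23, adjusted p = 4.41e-12). *R05D3.6* followed the same pattern, with 18816, 13619 and 21974 TPM in *daf-2(lf)* and 1146, 895, 959 and 926 TPM in wild-type cells (log2 difference 4.19, SE 0.17, adjusted p = 4.72e-13). The largest loss was that of *pat-10*, given above. *ttr-16*, a transthyretin-like gene, had 5177, 4554 and 4926 TPM in *daf-2(lf)* and 30701, 34297, 33574 and 27415 TPM in wild-type cells (log2 difference -2.68, SE 0.14, adjusted p = 2.29e-11). *F46H5.3*, whose product resembles arginine kinases, had 12256, 6965 and 8247 TPM in *daf-2(lf)* and 41729, 34238, 30562 and 30953 TPM in wild-type cells (log2 difference -1.94, SE 0.26, adjusted p = 5.74e-06). *ndk-1*, nucleoside diphosphate kinase, had 1750, 2044 and 1849 TPM in *daf-2(lf)* and 18821, 17179, 16435 and 23252 TPM in wild-type cells (log2 difference -3.32, SE 0.15, adjusted p = 1.43e-12). *cpg-9* had 906, 963 and 788 TPM in *daf-2(lf)* and 14512, 16770, 15672 and 15071 TPM in wild-type cells (log2 difference -4.13, SE 0.16, adjusted p = 2.97e-13). None of these abundant genes overlapped between the groups.

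The same difference of receptor genotype and rearing was measured in animals without DAF-16. Of the 14717 genes, 4726 (32.1%) differed between double mutant and *daf-16(lf)* muscle cells, 3457 higher and 1269 lower, with a median log2 difference of 0.33. Under median-of-ratios scaling this median was 0.07, and the share of higher calls 54.1% against 73.2%. Of the 4785 genes called in *daf-2(lf)* against wild-type cells, 4698 (98.2%) had the same sign in the pair without DAF-16 and 87 the opposite sign. Both comparisons called 3472 genes, 72.6% of the calls of the first and 73.5% of those of the second, and 3470 of these had the same sign. The comparisons share no library, but they share the rearing difference between their groups.

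The counts of some lists were close in animals without DAF-16 and those of others were not, and no difference between counts was tested. Of the 80 cytosolic ribosomal protein genes 73 were higher and 3 lower in double mutant than in *daf-16(lf)* muscle cells (median 2.01). For the 43 nuclear respiratory chain genes these counts were 38 and 2 (median 1.72), for the 33 proteasome genes 31 and 0 (median 1.35), and for the 22 thin filament genes 10 and 6 (median 0.63). *pat-10* had 13316, 17242 and 18905 TPM in double mutant and 119230, 117430, 116490 and 76075 TPM in *daf-16(lf)* cells (log2 difference -2.69, SE 0.16, adjusted p = 1.43e-10). *rpl-29* had 28497, 27771 and 20770 TPM in double mutant and 1581, 1584, 1503 and 2589 TPM in *daf-16(lf)* cells (log2 difference 3.85, SE 0.19, adjusted p = 7.03e-12). Of the 15 largest rises 12, and of the 15 largest falls all, were called with the same sign there. *akt-2* was higher as well, at 5.67, 6.19 and 9.32 TPM in double mutant and 1.75, 1.62, 1.35 and 1.29 TPM in *daf-16(lf)* cells (log2 difference 1.66, SE 0.30, adjusted p = 0.000179). Of the neuropeptide genes 32 were higher and 8 lower in the double mutant (median 0.64). Of the class raised by DAF-16 1 was higher and 5 were lower, and of the larger and organelle chaperones 8 were higher and 7 lower. Of the mitochondrial ribosomal protein genes 25 were higher and none lower. Of 100 C-type lectins 5 were higher and 10 lower in the double mutant. These counts were 4 and 16 of 80 lysozyme and antimicrobial peptide genes, and 3 and 4 of 31 insulin-like ligands. Among all 14717 genes 3457 were higher and 1269 lower there. None of 30 major sperm protein genes passed limma's test in *daf-2(lf)* against wild-type cells, and 12 were higher in double mutant than in *daf-16(lf)* cells. Their sums were 299, 328 and 2674 TPM in double mutant and 19.4, 45.7, 114 and 474 TPM in *daf-16(lf)* cells. Double mutant replicate 3 was far above the rest, and the count was not repeated without it.

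**Figure D4:**
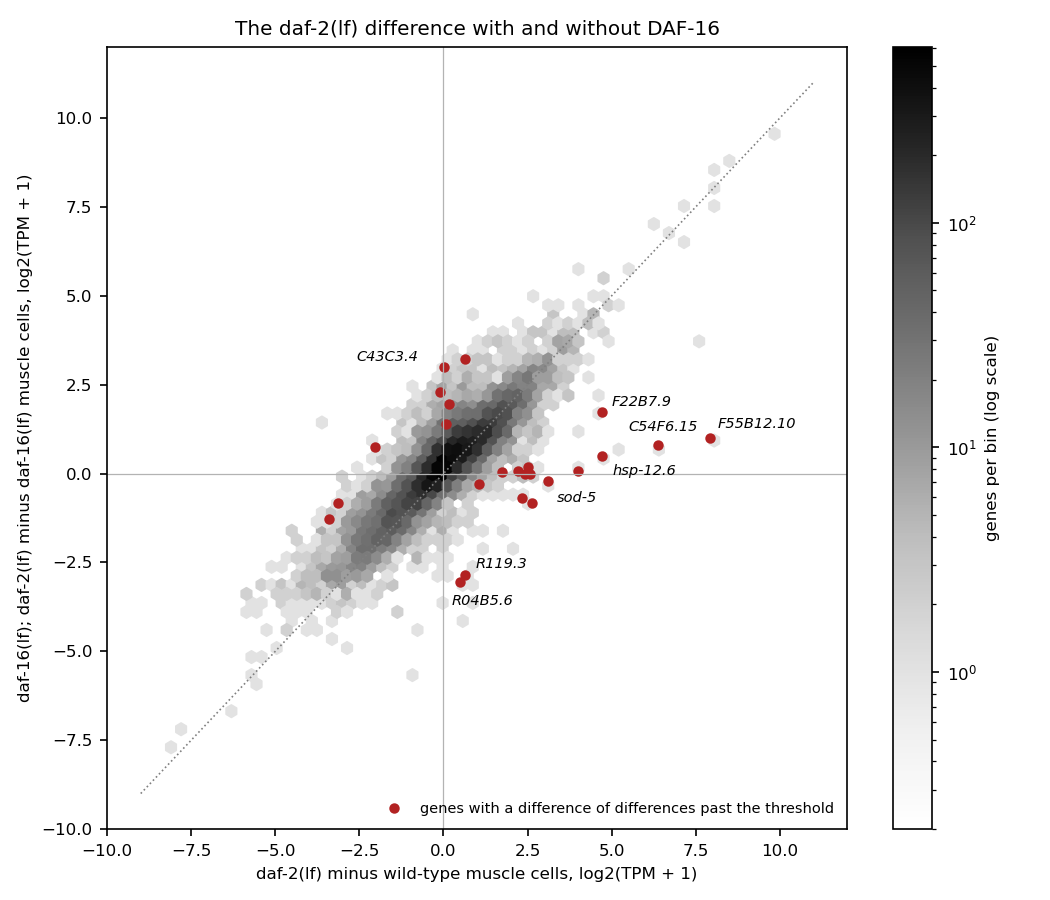
Log2 difference of *daf-2(lf)* minus wild-type muscle cells (x axis) against that of double mutant minus *daf-16(lf)* muscle cells (y axis) for the 14717 tested genes, shaded by the number of genes per hexagon on a log scale, with the genes whose 2 differences differ at an adjusted p under 0.05 as points. The cloud of genes runs along the dotted diagonal, and *F55B12.10* and *C54F6.15* lie far to the right of it at y values of 0.99 and 0.80.

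The difference of differences, *daf-2(lf)* minus wild-type set against double mutant minus *daf-16(lf)*, passed the test for 24 of the 14717 genes (0.163%), 16 positive and 8 negative. At an unadjusted p under 0.05 it held for 760 genes, and with array weights, by which noisier libraries count for less, for 4821. When each of the 14 muscle libraries was left out in turn, 12 of the 24 genes kept the call throughout, 10 of them positive. The balance of directions was not stable, with 12 positive and 20 negative calls without double mutant replicate 1 and 338 positive and 4483 negative calls with array weights. The largest was *F55B12.10*, with 488, 126 and 619 TPM in *daf-2(lf)* and 0.29, 0, 0.418 and 1.08 TPM in wild-type cells and 0, 1.53 and 3.9 TPM in double mutant and 0.277, 0.201, 0.189 and 0 TPM in *daf-16(lf)* cells (difference of differences 6.92, SE 0.82, adjusted p = 0.000198). *C54F6.15* had 114, 73.1 and 90.1 TPM in *daf-2(lf)* and 0, 0.527, 0 and 0 TPM in wild-type cells and 1.62, 0 and 1.02 TPM in double mutant and 0, 0, 0 and 0 TPM in *daf-16(lf)* cells (difference of differences 5.57, SE 0.54, adjusted p = 1.46e-05). Its neighbour in name *C54F6.6* had 21.2, 7.17 and 24 TPM in *daf-2(lf)* and 0, 0.0946, 0 and 0 TPM in wild-type cells and 0, 0.155 and 0 TPM in double mutant and 0, 0, 0 and 0 TPM in *daf-16(lf)* cells (difference of differences 3.95, SE 0.52, adjusted p = 0.000563). In each of these the 3 *daf-2(lf)* libraries stood alone above all other muscle libraries.

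*sod-5* showed the same pattern, with 0.116, 0.0384 and 0.0488 TPM in double mutant and 0, 0.141, 0.0444 and 0.942 TPM in *daf-16(lf)* cells (difference of differences 3.33, SE 0.41, adjusted p = 0.000231) beside the values above. *dmd-10*, a gene of the DM-domain transcription factor family, had 6.23, 3.21 and 3.4 TPM in *daf-2(lf)* and 0.211, 0.0216, 0.166 and 0 TPM in wild-type cells and 0.0207, 0.184 and 0.365 TPM in double mutant and 0.178, 0.137, 0.0513 and 0.132 TPM in *daf-16(lf)* cells (difference of differences 2.15, SE 0.31, adjusted p = 0.00183). *F08H9.4*, of the small heat shock protein family, had 10.8, 4.48 and 14.2 TPM in *daf-2(lf)* and 0.916, 1.32, 0.72 and 0.976 TPM in wild-type cells and 0.0636, 0.378 and 0 TPM in double mutant and 1.3, 0.552, 0.79 and 0.774 TPM in *daf-16(lf)* cells (difference of differences 3.02, SE 0.48, adjusted p = 0.00564). The dehydrogenase gene *R119.3* differed in another way, and had 59.3, 61.3 and 69.4 TPM in *daf-2(lf)* and 42.4, 31.9, 35.7 and 52.9 TPM in wild-type cells but 4.66, 4.69 and 4.36 TPM in double mutant and 40.5, 34.3, 33.5 and 49.3 TPM in *daf-16(lf)* cells (difference of differences 3.49, SE 0.35, adjusted p = 1.46e-05). Its rise in *daf-2(lf)* (log2 difference 0.65, SE 0.24, adjusted p = 0.0476) was lost without any of 6 of the 7 libraries, while in the pair without DAF-16 it fell (log2 difference -2.84, SE 0.24, adjusted p = 2.26e-08). *R04B5.6*, another dehydrogenase, had 17.2, 23.5 and 47.4 TPM in *daf-2(lf)* and 24.1, 20.4, 17.9 and 13.7 TPM in wild-type cells and 0.354, 2.44 and 0.334 TPM in double mutant and 21, 14.3, 12.6 and 10.5 TPM in *daf-16(lf)* cells (difference of differences 3.54, SE 0.64, adjusted p = 0.0183). This call was lost without wild-type replicate 4, *daf-2(lf)* replicate 3 or double mutant replicate 3 (highest adjusted p = 0.0809). In the annotation *R119.3* overlaps *pqn-59*, *F08H9.4* overlaps *srz-97* and *ZK742.4*, also called, overlaps *xpo-1*. The other genes called for the difference of differences overlap no other protein-coding gene. A part of the overlapping genes in these values was not tested.

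Of the negative differences that kept their call, *Y17D7B.7*, annotated as a pseudogene, fell in both pairs but by more with DAF-16 present. It had 249, 352 and 307 TPM in *daf-2(lf)* and 3937, 3094, 2030.3 and 3965 TPM in wild-type cells and 982, 1195 and 919 TPM in double mutant and 2869.9, 3032, 2426 and 1868 TPM in *daf-16(lf)* cells (difference of differences -2.10, SE 0.35, adjusted p = 0.0102). *hsp-12.6* had 0.19, 0.188 and 1.44 TPM in double mutant and 0.355, 0, 0 and 0 TPM in *daf-16(lf)* cells beside its values above (difference of differences 4.22, SE 0.83, adjusted p = 0.0382). It lost the call in 11 of the 14 omissions, up to an adjusted p of 0.103, and with same-numbered wild-type and *daf-16(lf)* libraries as pairs (adjusted p = 0.101). *sod-3* and *C54F6.5* did not pass this test. *sod-3* had 1.05, 1.71 and 2.04 TPM in double mutant and 0.0908, 0.971, 0.815 and 0.417 TPM in *daf-16(lf)* cells (difference of differences 4.32, SE 0.89, adjusted p = 0.0526). *C54F6.5* had 12, 15.3 and 41.6 TPM in double mutant and 1.34, 0.195, 0.55 and 0.773 TPM in *daf-16(lf)* cells (difference of differences 4.07, SE 0.84, adjusted p = 0.0513). *C54F6.5* was also higher in double mutant than in *daf-16(lf)* cells (log2 difference 3.64, SE 0.59, adjusted p = 6.58e-05), while for *sod-3* this difference did not pass the test (log2 difference 0.75, SE 0.63, adjusted p = 0.386).

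**Figure D5:**
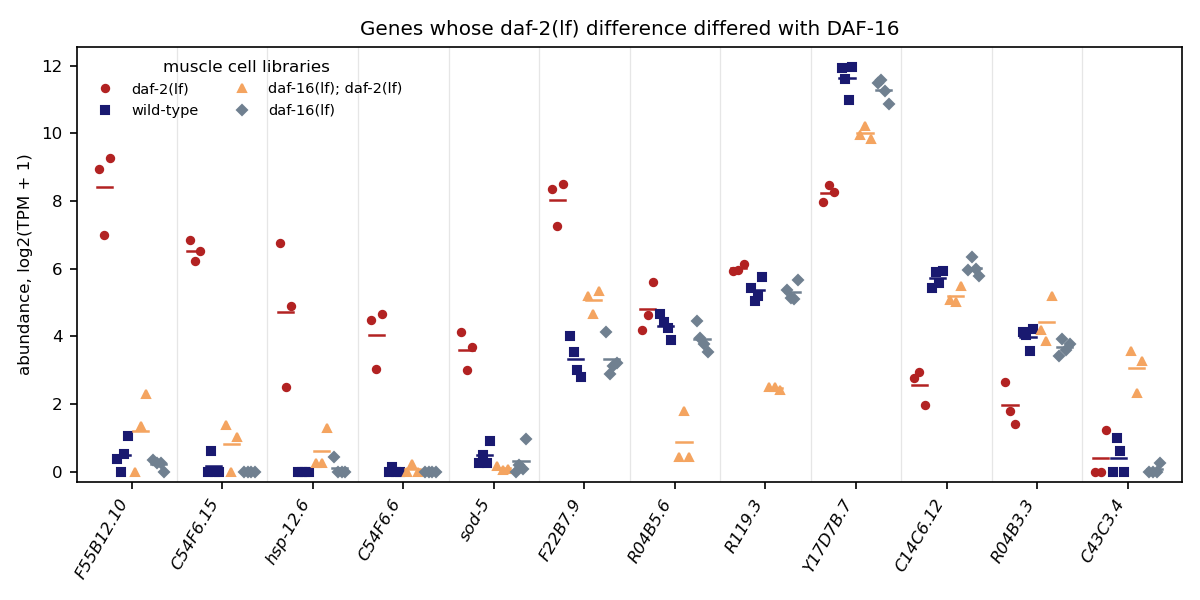
Abundance as log2(TPM + 1) of genes whose *daf-2(lf)* difference in muscle cells differed with the presence of DAF-16, with 1 point per library, in the order *daf-2(lf)*, wild-type, double mutant and *daf-16(lf)* for each gene, and a bar at the group mean. The *daf-2(lf)* points of *F55B12.10*, *C54F6.15*, *hsp-12.6*, *C54F6.6* and *sod-5* lie above those of all other groups, and the double mutant points of *R119.3* and *R04B5.6* lie below them.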

How the data were processed

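mRNA was sequenced from FACS-sorted cells, and the 7 libraries compared were grouped by the genotype and cell type of their labels. Per the methods and the submitters' processing notes, the authors quantified reads with Salmon 1.4.0 on the build WBcel235 and used DESeq2 on estimated counts. The deposited values are TPM of 35749 transcripts. TPM carries no depth, so no counting interval was computed, and the strand setting and the kit of each library are not given in the sources used here.

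The Ensembl annotation of WBcel235 gave the gene of 31176 transcripts by exact name and of 4485 by sequence name, and the other 88 were kept as named. Summing TPM gave 21982 genes. Genes reaching 1 TPM in 3 or more of the 24 libraries (14717) were fitted in limma 3.58.1 (R 4.3.3) as log2(TPM + 1), by 1 mean for each of the 8 groups, with empirical Bayes moderation, an abundance trend and Benjamini-Hochberg adjustment, at an adjusted p under 0.05. Differences on this scale understate changes of low values. Among the libraries of unsorted cells, the 2 of the wild type lack *daf-16* transcripts against their label. They are in no group compared here, but they share in the gene filter and in the spread behind every adjusted p of a gene. Without them in the fit, 5570 genes were called in *daf-2(lf)* against wild-type muscle cells, against 4785 with them. For double mutant against *daf-16(lf)* cells the calls were 5657 against 4726, and for the difference of differences 30 against 24. The procedure was also run on simulated data of independent libraries without library or batch effects, which cannot show how it behaves where these are present. Deviations of wild-type and *daf-16(lf)* libraries from their group means correlated at r = 0.288 to 0.683 between same numbers (source: the values, not the labels). Between unlike numbers r was -0.659 to 0.426. Wild-type replicate 2 was closer to *daf-16(lf)* replicate 3 (r = 0.426) than to replicate 2 (r = 0.288), so the pairing by number is uncertain. For same-numbered double mutant and *daf-2(lf)* libraries r was -0.277 to 0.479. Sums of marker genes were compared by two-sided exact permutation over libraries.

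Genes were named by membership of 48 gene lists (up to 4 of the largest changes in each direction and members whose role is explained), by the 15 largest rises and falls without overlap, the 10 largest changes in mean TPM, the 10 smallest adjusted p, the 8 largest differences of differences in each direction, and naming in the paper. The members, lists and rules were chosen with earlier results of these data known. Alternatives varied the pseudocount (0.1), the filter (none, or 4 TPM), the scaling (quantile, median-of-ratios) and the variance model (no trend, array weights), and included fits of fewer groups, the replicate number as a block, a 2-fold threshold and each replicate left out. The fit leaving out those 2, the pairing of wild-type with *daf-16(lf)* libraries and the omission of double mutant and *daf-16(lf)* libraries were added after seeing the data.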

Additional observations from a re-analysis of the deposited data

Results flagged for a closer look

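Among 224 named genes, 238 sets of 4 replicate values were examined by Dixon's test, which chance alone passes in about 5% of sets, or 1 in 20. The groups of 3 libraries were not examined. In 25 sets a value stood far from the others, but in 7 of these the other 3 libraries were listed at 0, so that any value above 0 would pass, which leaves 18. Of the 238 sets 217 were of wild-type and 21 of *daf-16(lf)* muscle cells, the latter only for genes with a called difference of differences. Of the 25 values 22 were in wild-type muscle cells and 13 of those in replicate 4. In wild-type replicate 4, abundant genes of the contractile apparatus and the matrix were far below the other replicates, with 6588 TPM for *unc-15*, 41280 TPM for *act-4*, 14600 TPM for *lev-11*, 1020 TPM for *zyx-1*, 1255 TPM for *let-2* and 6237 TPM for *ost-1*. The membrane genes *sup-10* (43.7 TPM) and *lev-1* (54.7 TPM) and the gene of the poly(A)-binding protein, *pab-1* (2401 TPM), were low there too. The same library was high in *rpl-39* (2452 TPM), *rps-28* (2406 TPM), *mtl-2* (509 TPM) and *dpy-13*, a cuticle collagen (1155 TPM). For each of these genes the value of replicate 4 was on the wild-type side of all *daf-2(lf)* libraries.

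In other wild-type libraries, replicate 1 was low in *ins-35*, an insulin-like gene (2.12 TPM), and high in *nuo-3* (2474 TPM). Replicate 2 stood above the others at low levels of *C54F6.15* (0.527 TPM), *C54F6.6* (0.0946 TPM) and *Y38F2AL.12* (0.278 TPM). Replicate 3 was high in *tps-1*, a trehalose synthase gene (7.04 TPM), *F40G12.5* (0.0328 TPM), *jph-1* (13.04 TPM) and *aco-2* (92.4 TPM). In *daf-16(lf)* muscle cells, replicate 1 stood apart in *hsp-12.6* (0.355 TPM), and replicate 4 in *C43C3.4* (0.197 TPM) and *Y38F2AL.12* (0.279 TPM).

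For 24 genes the log2 difference of *daf-2(lf)* from wild-type differed from that of the double mutant from *daf-16(lf)* (limma, Benjamini-Hochberg adjusted p under 0.05). The difference of differences was positive for *F55B12.10* (6.92), *C54F6.15* (5.57), *hsp-12.6* (4.22), *C54F6.6* (3.95), *R04B5.6* (3.54), *R119.3* (3.49), *C04F5.8* (3.44), *sod-5* (3.33), *F08H9.4* (3.02), *F22B7.9* (2.97), *skr-21* (2.57), *F40G12.5* (2.44), *ZK742.4* (2.35), *dmd-10* (2.15), *gst-31* (1.68) and *M05D6.10* (1.34). It was negative for *C43C3.4* (-2.98), *R04B3.3* (-2.77), *Y51H7C.13* (-2.59), *Y38F2AL.12* (-2.37), *C14C6.12* (-2.33), *Y17D7B.7* (-2.10), *F56C3.10* (-1.80) and *F54F7.6* (-1.33). The 12 that kept the call with each of the 14 muscle libraries left out were *C04F5.8*, *C54F6.15*, *C54F6.6*, *F08H9.4*, *F40G12.5*, *F54F7.6*, *F55B12.10*, *R119.3*, *Y17D7B.7*, *ZK742.4*, *dmd-10* and *sod-5*. *F40G12.5* had 7.5, 2.39 and 4.6 TPM in *daf-2(lf)* and 0, 0, 0.0328 and 0 TPM in wild-type cells and 0, 0 and 0.0314 TPM in double mutant and 0, 0.0323, 0.0303 and 0 TPM in *daf-16(lf)* cells, and *ZK742.4* had 12.4, 6.18 and 11.4 TPM in *daf-2(lf)* and 0.715, 0.601, 0.752 and 1.4 TPM in wild-type cells and 0.191, 0.835 and 0.548 TPM in double mutant and 0.0483, 0.243, 0.365 and 0.764 TPM in *daf-16(lf)* cells, so that in both the *daf-2(lf)* libraries alone were high.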

How the results depend on the processing

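The 4785 calls of *daf-2(lf)* against wild-type muscle cells numbered 3855 to 4460 when any of the 7 libraries was left out, and 8799 with array weights. Array weights likewise gave 10229 genes between double mutant and *daf-16(lf)* cells, against 4726 (3502 to 6271 with each library left out), and 4821 differences of differences, against 24 (14 to 35 with each library left out, of which 14 without *daf-2(lf)* replicate 3 and 15 without wild-type replicate 2, 3 or 4). The cause of these changes was not tested. Under median-of-ratios scaling 2639 genes were higher and 2880 lower in *daf-2(lf)* than in wild-type cells, against 2888 and 1897. Of 224 named genes 204 were called, and 21 of these lost the call without 1 of the compared libraries and 26 in at least 1 of 18 alternatives. A single gene changed direction while called, *hsp-4*, an HSP70 of the endoplasmic reticulum, at -0.56 under array weights (adjusted p = 0.0498), which did not pass the test otherwise (log2 difference 0.12, SE 0.50, adjusted p = 0.905). Within each comparison, same-numbered libraries did not deviate together (r = -0.0466, -0.00439 and -0.155 for *daf-2(lf)* with wild-type, and -0.106, -0.156 and 0.273 for the double mutant with *daf-16(lf)*), and with the replicate block of all numbers the counts were 5214, 5303 and 22. With same-numbered wild-type and *daf-16(lf)* libraries as pairs, an alternative chosen after seeing the data, 19 differences of differences were called, 15 positive and 4 negative, of which 18 were among the 24. Those lost were *Y38F2AL.12*, *R04B3.3*, *Y51H7C.13*, *hsp-12.6*, *C43C3.4* and *F56C3.10* (adjusted p = 0.0508 to 0.120), and *flp-15* was added (difference of differences -2.54, SE 0.46, adjusted p = 0.0299). Rearing temperature, strain and receptor mutation, which change together, limit every comparison, as do 3 and 4 libraries a group, short transcripts, whose effective length is uncertain, and gene copies among which reads can be split.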

Other observations

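Of 68 autophagy and lysosome genes tested, 19 were higher and 10 lower in *daf-2(lf)* muscle cells (median log2 difference 0.27), beside 19.6% and 12.9% of all genes. *lgg-1* and *lgg-2*, the Atg8 homologues that coat the autophagosome, rose together. *lgg-1* had 895, 278 and 495 TPM in *daf-2(lf)* and 74.1, 61.5, 63.4 and 96.3 TPM in wild-type cells (log2 difference 2.76, SE 0.42, adjusted p = 2.72e-05). *lgg-2* had 121, 43.9 and 85.2 TPM in *daf-2(lf)* and 14.2, 10.02, 11.3 and 14.3 TPM in wild-type cells (log2 difference 2.55, SE 0.38, adjusted p = 2.5e-05). In both genes *daf-2(lf)* replicate 1 was highest, and no *daf-2(lf)* value lay within the wild-type range. *cpr-5*, a cathepsin B-like protease gene, had 24.2, 17.1 and 14.7 TPM in *daf-2(lf)* and 213, 249, 259.7 and 212 TPM in wild-type cells (log2 difference -3.60, SE 0.45, adjusted p = 2.95e-06). Without DAF-16 both Atg8 genes were higher too. *lgg-1* had 863, 372 and 1019 TPM in double mutant and 74.7, 63.1, 60.5 and 128 TPM in *daf-16(lf)* cells (log2 difference 3.13, SE 0.42, adjusted p = 6.93e-06). *lgg-2* had 179.8, 72.1 and 262 TPM in double mutant and 17.9, 14, 11 and 27.4 TPM in *daf-16(lf)* cells (log2 difference 3.10, SE 0.38, adjusted p = 2.63e-06).

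Of 57 histone genes 5 rose and 14 fell (median -0.75), and the number of falls was 8 without *daf-2(lf)* replicate 1, 9 without wild-type replicate 4 and 24 under median-of-ratios scaling. *his-71* and *his-72*, which encode the replacement histone H3.3, rose. *his-71* had 121, 91.2 and 126 TPM in *daf-2(lf)* and 23.8, 24.4, 29.8 and 46.9 TPM in wild-type cells (log2 difference 1.86, SE 0.39, adjusted p = 0.000818). *his-72* had 173, 144 and 177 TPM in *daf-2(lf)* and 41.2, 46, 46.9 and 81.8 TPM in wild-type cells (log2 difference 1.64, SE 0.35, adjusted p = 0.000978). Of 24 genes of fatty acid synthesis and desaturation 3 rose and 2 fell (median 0.13, and -0.07 under median-of-ratios scaling). Of 14 oocyte and eggshell genes 3 rose and none fell, and 6 rose under quantile normalization or with a pseudocount of 0.1. The share of rises was near the 19.6% of all genes. Their sums were 63.8 ± 54.6 TPM in *daf-2(lf)* and 8.06 ± 2.4 TPM in wild-type muscle cells (SD, n = 3 and n = 4), and 32.3 ± 5.5 TPM in *daf-2(lf)* without replicate 1 (n = 2). None of 30 major sperm protein genes and none of 6 yolk protein genes passed limma's test in either direction.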
